A study of Mus musculus with 100 samples.

Results

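Trophoblast, the lineage that forms the placenta, was followed through 10 genes: the transcription factor genes Cdx2, Elf5, Tead4, Ascl2, Esx1 and Hand1, the keratin genes Krt7, Krt8 and Krt18, and Plac1, a placenta-enriched gene of the X chromosome. The 10 were chosen by name as trophoblast genes out of 23109 gene-level entries, with earlier results of these data known. None was dropped for how it behaved. The RNA tables used here cover 37 libraries in 18 groups, from a study of the methyltransferase activities of MLL3 and MLL4, a pair of related enzymes that place methyl groups on lysine 4 of histone H3 at enhancers. The cultured mouse cells were all Mll3-/-. Those called flox here were Mll4flox/flox and those called KI were Mll4KI/KI, a genotype the labels do not spell out. KI libraries come from clones 27 and 48 and flox libraries carry replicate numbers only. Embryonic stem cells (ESCs) were kept in 2i and LIF. From them came embryoid bodies (EBs, floating clumps grown without LIF) of days 4 and 10, and, with retinoic acid added, neural progenitor cells (NPCs, day 8) and then neurons (day 16). Retinoic acid with Activin A for 5 days gave the extraembryonic endoderm (ExEn) cultures, and 6 days of CDX2 induction the trophectoderm (TE) cultures. For the latter, ESCs had been infected with a doxycycline-inducible lentiviral vector that expresses T7-tagged CDX2, and grew with FGF-4, heparin, doxycycline and medium conditioned by feeder cells. Embryos, taken whole at E8.5 or E9.5, were either controls (Mll3flox/KI;Mll4flox/+;Sox2-Cre) or KI (Mll3flox/KI;Mll4flox/KI;Sox2-Cre). Sox2-Cre deletes floxed alleles in the epiblast and the embryo proper formed from it, and spares most extraembryonic tissue. Groups held 2 libraries in the TE, ExEn and neural cultures, 3 in embryos, and 1 flox and 2 KI libraries on each day of the ESC and EB course. An RNA library of day 8 neural cells labelled Mll34DKO65 was not analysed here.

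In the early mouse embryo, TEAD4 with the coactivator YAP switches on Cdx2 in the outer cells, which become trophectoderm. CDX2 and ELF5 then hold trophoblast stem cells in their state, and ELF5 is silenced by promoter methylation in cells of the embryo proper. ASCL2, ESX1 and HAND1 act later, in the spongiotrophoblast, the labyrinth and the giant cells, and HAND1 is also a regulator of extraembryonic mesoderm, lateral mesoderm and heart. Krt8 and Krt18 encode the partner chains of the first filaments laid down in the embryo, and Krt7 marks trophoblast and other simple epithelia.

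Gene-level totals ran from 18.9 to 59.9 M reads per library, so that 3 reads, the most that a count of 0 allows, stood for 0.05 to 0.159 CPM (read counts scaled to the gene-level total of each library). These limits cover counting error only. Tead4, Krt8 and Krt18 had more than 3 reads in 37 of 37 libraries, Krt7 in 36, Ascl2 in 34, Cdx2 in 33, Esx1 in 32, Plac1 in 30, Hand1 in 28 and Elf5 in 18. Of the 10 genes, 8 had their highest mean CPM in a TE group, which was KI for Tead4, Krt7, Krt8, Krt18, Ascl2, Esx1 and Plac1 and flox for Elf5. Cdx2 and Hand1 were highest in KI embryos at E8.5. The lowest levels of Krt8 (0.148 and 0.100 CPM), Krt18 (0.333 and 0.184 CPM) and Krt7 (0.0370 and 0.0835 CPM) were in KI neurons. The labels give the molecule as poly(A) RNA for ESC, EB and neural libraries but total RNA for the rest, although poly(A) selection is described for all, so levels set across these labels are descriptions without a test.

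**Figure D1:**
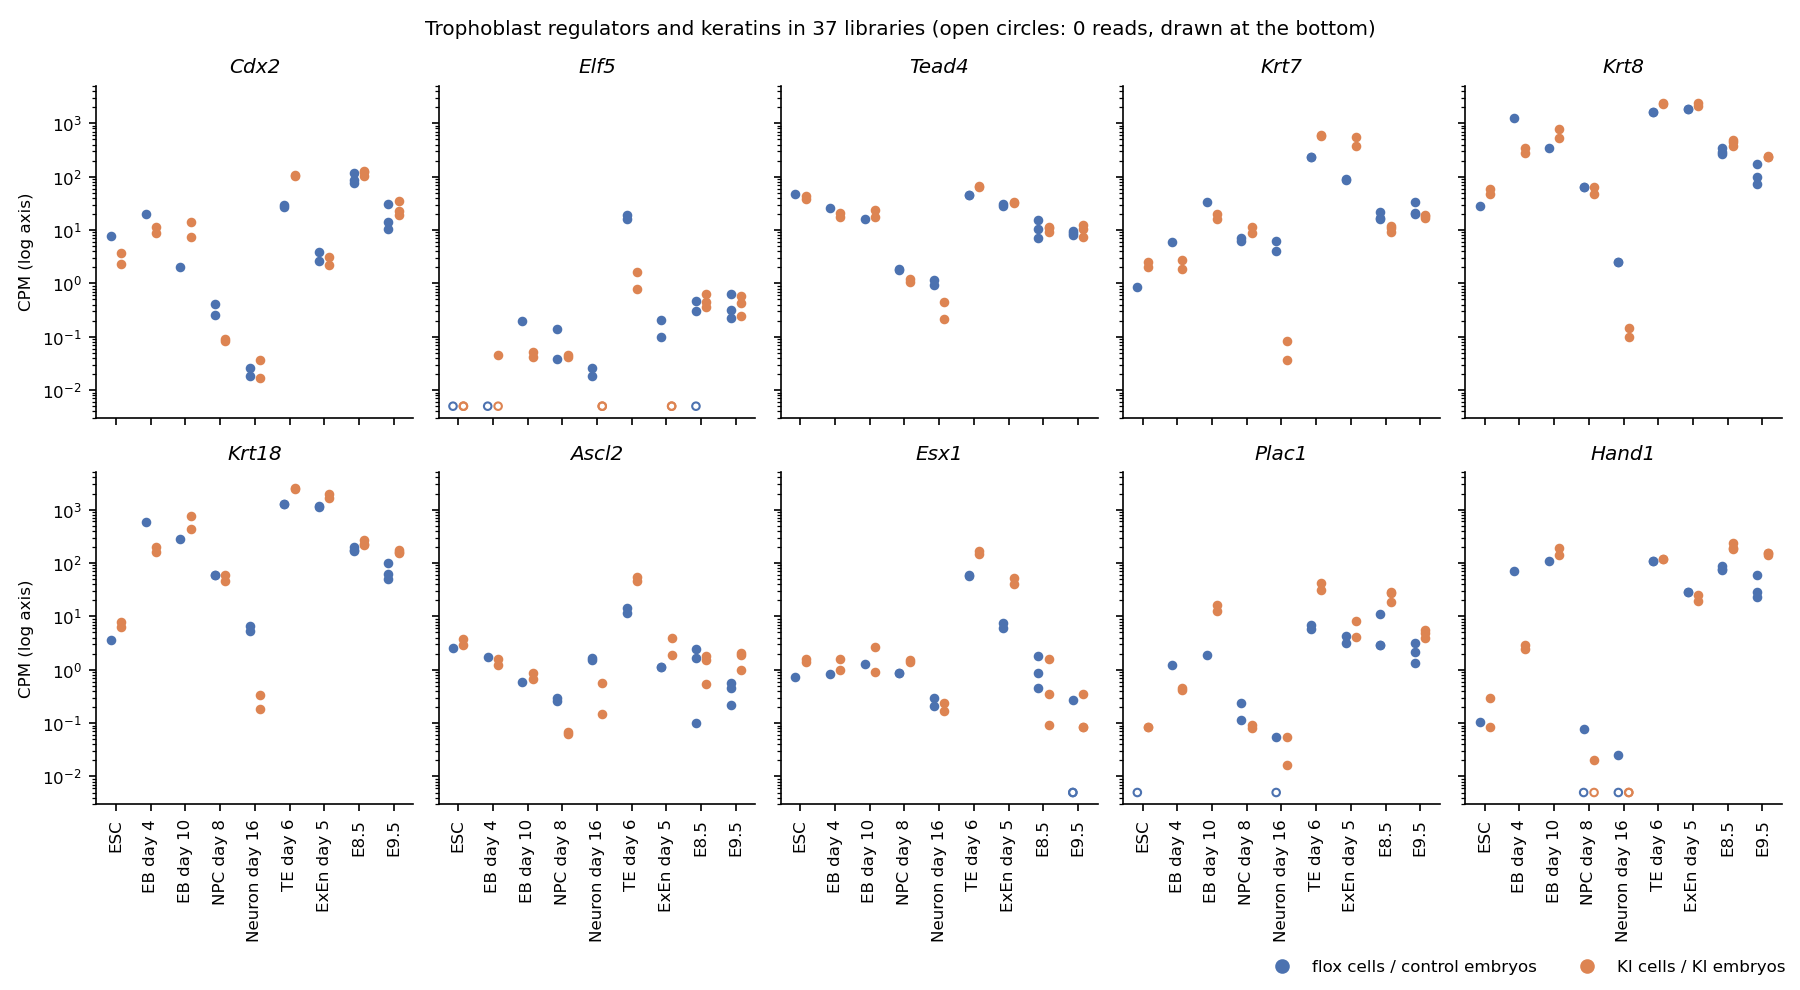
CPM (log axis) of the 10 genes in each of the 37 libraries, by culture or embryo stage, with flox cells and control embryos in blue, KI cells and KI embryos in orange, and libraries with 0 reads as open circles at the bottom. Krt8 and Krt18 lay near the top of the axis in every TE and ExEn library, and Elf5 exceeded 10 CPM in the flox TE libraries alone.

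Krt7, Krt8 and Krt18 were all called higher in KI TE cells and Elf5 lower, so the 250 bases before their start sites are shown, 5′ to 3′, from RefSeq on build GRCm38.p6, where 8 of the 10 genes were matched. Krt8 and Krt18 are read in opposite directions on chromosome 15, and Krt7 lies on the same chromosome. Capitals mark matches, on either strand, to any of 6 short motifs, none of which overlap here. The letters searched were GGAATG for TEAD factors. For the AP-1 family they were TGANTCA and for the AP-2 family GCCNNNGGC. The ETS family was searched as AGGAAG, and CDX factors as TTTATNG. For GATA factors the letters were AGATAA.
Krt7, chr15:101412153-101412402 (plus strand): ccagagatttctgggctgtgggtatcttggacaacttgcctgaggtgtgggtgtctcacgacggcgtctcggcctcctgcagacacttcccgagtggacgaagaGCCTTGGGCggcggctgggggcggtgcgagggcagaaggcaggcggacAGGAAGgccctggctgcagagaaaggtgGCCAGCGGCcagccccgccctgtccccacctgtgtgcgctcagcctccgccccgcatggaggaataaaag
Krt8, chr15:102004343-102004592 (minus strand): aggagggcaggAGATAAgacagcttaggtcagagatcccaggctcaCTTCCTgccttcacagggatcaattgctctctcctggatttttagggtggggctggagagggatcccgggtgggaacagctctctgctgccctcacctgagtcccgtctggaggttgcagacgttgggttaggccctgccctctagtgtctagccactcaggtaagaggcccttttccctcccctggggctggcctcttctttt
Krt18, chr15:102027966-102028215 (plus strand): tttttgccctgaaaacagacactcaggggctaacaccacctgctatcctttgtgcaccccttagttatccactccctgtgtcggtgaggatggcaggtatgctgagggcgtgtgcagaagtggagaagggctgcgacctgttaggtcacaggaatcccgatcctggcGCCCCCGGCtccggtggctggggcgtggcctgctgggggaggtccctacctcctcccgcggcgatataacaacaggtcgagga
Elf5, first start, chr2:103411848-103412097 (plus strand): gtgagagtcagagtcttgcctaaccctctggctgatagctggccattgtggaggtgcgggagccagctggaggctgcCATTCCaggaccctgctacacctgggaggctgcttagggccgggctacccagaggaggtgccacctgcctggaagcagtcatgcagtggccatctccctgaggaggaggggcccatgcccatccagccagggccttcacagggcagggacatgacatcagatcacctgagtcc
Elf5, second start, chr2:103423818-103424067 (plus strand): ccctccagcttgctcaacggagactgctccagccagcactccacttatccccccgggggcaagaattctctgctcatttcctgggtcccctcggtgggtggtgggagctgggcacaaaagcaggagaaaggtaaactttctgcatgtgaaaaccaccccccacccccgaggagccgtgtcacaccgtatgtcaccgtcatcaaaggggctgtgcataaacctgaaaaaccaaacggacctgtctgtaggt

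The Krt7 window held 2 AP-2 matches and 1 ETS match, the Krt18 window 1 AP-2 match, and the Krt8 window 1 ETS and 1 GATA match. The first Elf5 window held 1 TEAD match and the second none of the 6 motifs. Among 32851 promoters of the same length, the share with at least 1 match was 13.7% for AP-2, 29.5% for ETS, 9.99% for GATA, 12.6% for TEAD, 6.75% for AP-1 and 9.81% for CDX. CpG dinucleotides numbered 16 before Krt7, 12 before Krt18, 3 before Krt8, and 2 and 8 before the Elf5 starts, against a median of 6 (quartiles 2 and 16) over all promoters. The keratin windows thus differ among themselves in CpG number and share no motif that all of them hold. A match describes letters and does not show binding.

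TE cultures come first because the induced lineage is trophoblast. In KI TE cells Cdx2, Tead4, all 3 keratins, Ascl2, Esx1 and Plac1 rose and Elf5 fell. That made 8 of the 10 called higher and 1 lower (edgeR, adjusted p under 0.05). Over all 15532 genes tested 50.9% were called in either direction, 26.7% higher and 24.2% lower. The median log2 fold change of the 10 was 1.17, against 0.01 over all genes.

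Cdx2 stood at 29.9 and 27.1 CPM in the flox TE libraries and 107 and 103 CPM in the KI clones (log2 change 1.92, SE 0.12, edgeR adjusted p = 1.39e-08). All KI values lay above all flox values. Reads of the CDX2 transgene may be counted in Cdx2, and transgene and endogenous RNA cannot be told apart in these tables, so this difference may hold both. Elf5, which acts with CDX2 in trophoblast stem cells, went the opposite way, from 16.05 and 19.0 CPM in flox to 0.799 and 1.67 CPM in KI (log2 change -3.79, SE 0.32, edgeR adjusted p = 4.39e-07), a 13.9-fold lower level that rested on 22 and 46 reads. Tead4, which acts upstream of Cdx2 in the embryo, rose less, from 46.1 and 45.6 CPM to 63.8 and 67.2 CPM (log2 change 0.55, SE 0.08, edgeR adjusted p = 7.67e-05). So the regulators did not shift as a block: with Tead4 higher, and Cdx2 higher in reads that may include the transgene, Elf5 was the single member that was lower.

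Among the 3 keratins of the 10 genes, Krt7 differed most. It measured 238 and 229 CPM in flox and 595 and 576 CPM in KI (log2 change 1.36, SE 0.19, edgeR adjusted p = 0.00307). Krt18 rose from 1293 and 1252 to 2491 and 2425 CPM (log2 change 0.98, SE 0.07, edgeR adjusted p = 9.86e-06) and its partner Krt8 from 1624 and 1596 to 2388 and 2333 CPM (log2 change 0.58, SE 0.05, edgeR adjusted p = 1.83e-06). For each keratin both KI values lay above both flox values, in a comparison where 50.9% of all genes were called. The share of genes whose groups separate in this way is another measure and was not computed, here or below. Per transcript length, on the authors' deposited RPKM, Krt8 was at 677 and 659.5 in flox and 1042 and 998 in KI, and Krt18 at 695 and 667 in flox and 1401 and 1337 in KI. Both keratins exceeded Tead4, at 11.3 and 11.1 RPKM in flox, in every TE library.

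Genes of later trophoblast split between large rises and no call. Plac1 went from 5.76 and 6.99 to 43.1 and 30.9 CPM (log2 change 2.57, SE 0.31, edgeR adjusted p = 0.000137). Ascl2, required for the spongiotrophoblast, went from 11.4 and 14.2 to 55.8 and 46.0 CPM (log2 change 2.02, SE 0.21, edgeR adjusted p = 7.11e-06). Esx1, an X-linked homeobox gene of the labyrinth, went from 60.0 and 57.3 to 165 and 145 CPM (log2 change 1.44, SE 0.11, edgeR adjusted p = 6.58e-07). Each was higher in both KI clones than in both flox libraries, again beside 50.9% of all genes called. Hand1, needed for giant cells, measured 109 and 110.2 CPM in flox and 117 and 118 CPM in KI and was not called (log2 change 0.14, SE 0.09, edgeR adjusted p = 0.203), with both KI values above both flox values. The 9 calls stood under each of 9 alternative fits, and 6 of them were at least 2-fold. With 2 libraries a group, the p-values measure only the spread between these libraries. The KI pair comes from clones 27 and 48, whereas the flox pair carries replicate numbers only.

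**Figure D2:**
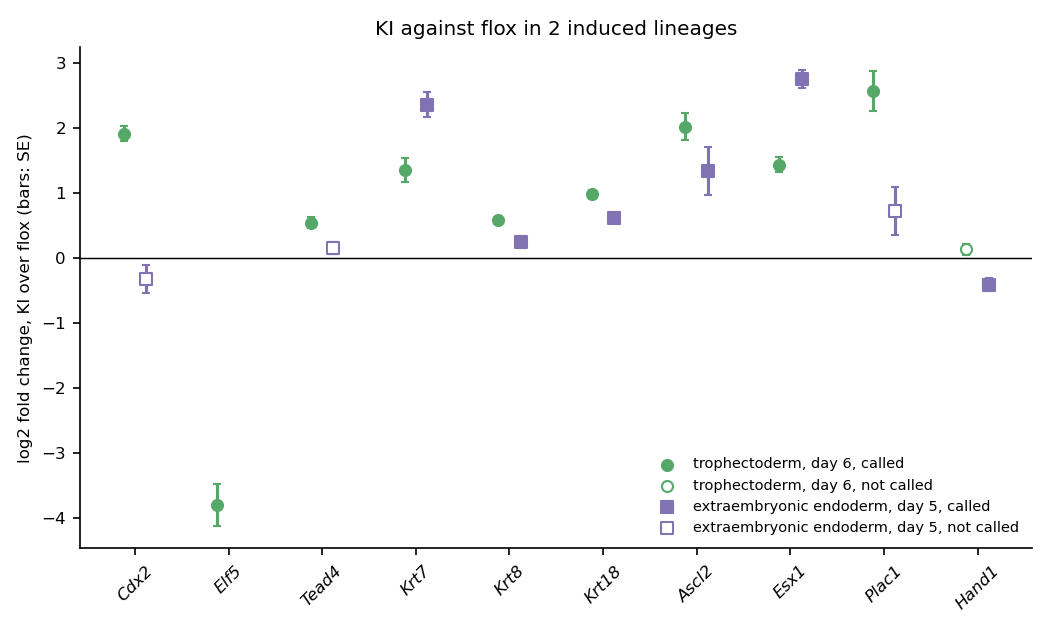
Log2 fold change of KI over flox for each gene (bars are the SE of the edgeR fit) in trophectoderm and extraembryonic endoderm cultures, 2 libraries a group, with filled symbols for called genes. Elf5 in extraembryonic endoderm is left out because both KI libraries had 0 reads. Krt7 and Esx1 lay higher in extraembryonic endoderm, Cdx2 and Plac1 in trophectoderm.

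Other genes of the trophoblast program were read in lists. Of 16 other trophoblast stem cell regulators, 9 of the 16 tested were called higher and 4 lower (median log2 fold change 0.65, against 0.01 over all genes), led by Gata2 at 2.83 (SE 0.19), Tfap2a at 2.72 (SE 0.19), Cdx4 at 2.09 (SE 0.76) and Gata3 at 1.92 (SE 0.10). Gata3, which acts beside Cdx2 in trophectoderm, averaged 17.2 ± 0.842 CPM in flox and 63.7 ± 4.27 CPM in KI (SD, n = 2). Of the 15 genes of the Hippo pathway and its TEAD partners, 5 of the 15 tested were called higher and 6 lower (median log2 fold change 0.02, against 0.01 over all genes). Here Ankrd1, a target of YAP and TEAD, was lower at -1.26 (SE 0.23) and Amot, an inhibitor of YAP, higher at 1.06 (SE 0.11). Of the 17 genes of differentiated trophoblast, 8 of the 12 tested were called higher and 0 lower (median log2 fold change 1.31, against 0.01 over all genes), with Rhox9 at 2.66 (SE 0.27) and Rhox6 at 2.48 (SE 0.25), a pair of similar X-linked homeobox genes whose reads could be shared. The giant cell gene Prl3d1, the spongiotrophoblast gene Tpbpa and the labyrinth gene Ctsq had 0 reads in flox TE, and Prl3b1 had 0 reads in KI TE. Tpbpa averaged 0.0726 ± 6.41e-05 CPM in KI, under the limit that a count of 0 allows. Ctsq averaged 0.254 ± 0.154 CPM in KI and Prl3d1 0.0182 ± 0.0257 CPM. The whole list summed to 2326 to 2335 CPM in flox and 5797 to 6432 CPM in KI, most of it Peg10, a placental gene that other cells also express, at 1805 ± 16.7 CPM in flox and 4518 ± 319.7 CPM in KI (SD, n = 2). Other keratins and junction genes were split, in that 4 of the 14 tested were called higher and 5 lower (median log2 fold change -0.03, against 0.01 over all genes), with Krt14 higher at 2.92 (SE 0.39) and Krt20 lower at -2.12 (SE 0.18).

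Markers of other cell types moved beside these genes. The summed level of 8 pluripotency genes was 1202 to 1248 CPM in flox TE and 422 to 531 CPM in KI TE, and 4939.8 to 5244 CPM in KI stem cells, with 8 of 8 called lower in KI TE and none at 0. Sox2 fell by 3.00 and Nanog by 1.92 on the log2 scale. The summed level of 6 mesothelium genes was 98.3 to 105 CPM in flox and 42.7 to 46.6 CPM in KI. Neural progenitor genes summed to 330.4 to 347 CPM in flox and 61.0 to 81.0 CPM in KI, with 4 of 5 tested called lower. Extraembryonic and lateral mesoderm genes summed to 1747 to 1759 CPM in flox and 2153 to 2281 CPM in KI, with 3 of 8 called higher and 2 lower. The part of any of these in the member differences was not tested. In bulk RNA, more cells of a type and more RNA per cell cannot be told apart.

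ExEn cultures are labelled neither with a CDX2 transgene nor as trophoblast, so they show the same genes outside it. In KI cells Krt7, Krt8, Krt18, Ascl2 and Esx1 rose and Hand1 fell. That is 5 of 10 called higher and 1 lower, against 35.5% of 15532 genes called in either direction (18.1% higher and 17.4% lower). The median of the 10 was 0.44, against 0.00 over all genes. Cdx2 was low, at 2.66 and 3.88 CPM in flox and 2.25 and 3.08 CPM in KI, with overlapping groups (log2 change -0.33, SE 0.22, edgeR adjusted p = 0.267). Elf5 had 2 and 4 reads in flox and 0 in both KI libraries, at or about the limit that a count of 0 allows, so no fold is given. It was not called by edgeR as fitted here but was called lower by DESeq2 (adjusted p = 0.0367), with no filter (edgeR adjusted p = 0.0297) and with sums over transcripts (edgeR adjusted p = 0.0286). Tead4 stood at 30.8 and 27.7 CPM in flox and 34.2 and 32.6 CPM in KI (log2 change 0.16, SE 0.09, edgeR adjusted p = 0.184).

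Esx1 showed the largest called difference in ExEn, with 6.15 and 7.51 CPM in flox and 52.9 and 41.1 CPM in KI (log2 change 2.75, SE 0.14, edgeR adjusted p = 4.61e-08). Krt7 followed, with 86.5 and 90.9 CPM in flox and 557 and 375 CPM in KI (log2 change 2.36, SE 0.20, edgeR adjusted p = 0.000771). Both genes were far apart between the genotypes and varied between the KI clones. Krt18 rose from 1148 and 1139 to 1976 and 1629 CPM (log2 change 0.63, SE 0.07, edgeR adjusted p = 0.000303) and Krt8 from 1846 and 1861 to 2415 and 2089 CPM (log2 change 0.25, SE 0.05, edgeR adjusted p = 0.00262). Ascl2 was scarce, at 1.11 and 1.12 CPM in flox and 3.89 and 1.87 CPM in KI (log2 change 1.34, SE 0.37, edgeR adjusted p = 0.0138). It lost its call without either flox library, at values of 1.33 and 1.34, and without clone 27, at 0.71. Hand1 fell from 28.8 and 29.1 to 25.1 and 19.5 CPM (log2 change -0.40, SE 0.10, edgeR adjusted p = 0.00534), and this call was lost without clone 48. Plac1 measured 3.10 and 4.29 CPM in flox and 8.35 and 4.04 CPM in KI (log2 change 0.72, SE 0.36, edgeR adjusted p = 0.164), with 1 clone inside the flox range. Without that clone, 48, it was called higher (1.14, edgeR adjusted p = 0.00367).

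The ExEn cultures were checked against their own markers. The 10 endoderm genes summed to 1879.5 to 1889 CPM in flox and 232 to 238 CPM in KI, and 10 of 10 were called lower in KI, with Afp at 44.7 ± 3.20 and 0.729 ± 0.0307 CPM (SD, n = 2). The KI ExEn libraries were therefore low in the genes that define their label, and the part of this in the trophoblast genes was not tested. Mesothelium genes summed to 59.7 to 63.4 CPM in flox and 26.9 to 28.8 CPM in KI (2 of 6 called lower and 1 higher), and mesoderm genes to 3666 to 3739.7 CPM in flox and 3037 to 3179.9 CPM in KI (3 of 8 called lower). Of the 16 other trophoblast stem cell regulators, 9 of the 16 tested were called higher and 2 lower (median log2 fold change 0.68, against 0.00 over all genes). Cdx1 was higher at 2.98 (SE 0.24) and Eomes, a regulator of both trophoblast and early endoderm, lower at -2.74 (SE 0.17). Of differentiated trophoblast genes, 8 of the 12 tested were called higher and 2 lower (median log2 fold change 1.61, against 0.00 over all genes), and Rhox9 again led at 4.00 (SE 0.33). Of other keratins and junction genes, 8 of the 14 tested were called higher and 2 lower (median log2 fold change 0.83, against 0.00 over all genes), with Krt14 at 3.72 (SE 0.31). In the Hippo list 6 of the 15 tested were called higher and 6 lower (median log2 fold change -0.06, against 0.00 over all genes), and Amot was lower at -1.23 (SE 0.11) where it was higher in KI TE cells.

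The difference between the KI effects in TE and ExEn was tested as an interaction, in which 6 members were called higher and 2 lower, against 35.3% of all genes (18.3% higher and 17.0% lower). The change from flox to KI on the log2 scale, TE minus ExEn, was positive for Cdx2 (2.24, SE 0.25, edgeR adjusted p = 8.55e-06), Plac1 (1.84, SE 0.48, edgeR adjusted p = 0.0165), Hand1 (0.54, SE 0.13, edgeR adjusted p = 0.00511), Tead4 (0.39, SE 0.12, edgeR adjusted p = 0.023), Krt18 (0.36, SE 0.10, edgeR adjusted p = 0.0303) and Krt8 (0.33, SE 0.07, edgeR adjusted p = 0.00395). For Hand1 this came with a fall in ExEn (-0.40) and no call in TE (0.14). It was negative for Esx1 (-1.32, SE 0.18, edgeR adjusted p = 0.000171) and Krt7 (-1.004, SE 0.27, edgeR adjusted p = 0.0416), which rose in both cultures and more in ExEn. The call of Krt18 was lost when either flox library of TE or ExEn, or either KI clone of TE, was left out, and so was that of Krt7. The values in these fits ran from 0.30 to 0.38 for Krt18 and from -1.07 to -0.98 for Krt7. Tead4 lost its call without either flox TE library, clone 48 in TE, flox ExEn library 1 or clone 48 in ExEn, and Plac1 without either flox TE library or flox ExEn library 2. DESeq2 did not call Tead4 (adjusted p = 0.0588), and with no filter Krt7, Krt18 and Plac1 were not called (edgeR adjusted p = 0.0689, 0.132 and 0.0561). Cdx2, Esx1, Krt8 and Hand1 kept theirs in each of these fits. The Cdx2 value may include reads of the induced transgene, which the ExEn cultures are not labelled as carrying. Ascl2 was not called (0.68, SE 0.44, edgeR adjusted p = 0.258), and its value was 1.31 without clone 27 in ExEn.

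TE and ExEn were also compared within a genotype. In flox, 7 members were higher in TE and Krt8 was lower, against 64.7% of all genes called (32.2% higher in TE and 32.5% lower). In KI, 8 were higher in TE and 0 lower at an adjusted p under 0.05, against 63.1% (32.3% and 30.8%). Elf5 was called higher in TE in both genotypes, against 2 and 4 reads in flox ExEn and 0 reads in KI ExEn, and no fold is given for it. The largest other called differences in flox were those of Ascl2 at 3.42 (SE 0.30), Cdx2 at 3.03 (SE 0.16) and Esx1 at 3.01 (SE 0.14). Hand1 was 1.83 (SE 0.09) higher in TE in flox and 2.37 (SE 0.09) in KI. Krt7 was 1.31 (SE 0.19) higher in TE in flox, while in KI the value was 0.30 (SE 0.18, edgeR adjusted p = 0.218). The difference of Krt7 between TE and ExEn was thus not called in KI, with 557 and 375 CPM in ExEn beside 595 and 576 CPM in TE, although without clone 27 in ExEn both Krt7 and Krt8 were called higher in TE. Cdx2 in TE may include reads of the induced transgene, which the ExEn cultures are not labelled as carrying. Pluripotency genes moved with the comparison, at 1202 to 1248 CPM in TE and 139.8 to 153 CPM in ExEn in flox (8 of 8 called higher in TE), and 422 to 531 CPM in TE and 108 to 118 CPM in ExEn in KI (7 of 8 called higher and 1 lower). Extraembryonic endoderm genes were lower in TE, 10 of 10 in flox and 8 of 10 in KI. The part of either list was not tested.

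The partner keratins did not keep a fixed ratio. On the authors' deposited RPKM, which is per transcript length, the ratio of Krt18 to Krt8 was 0.16 in the flox stem cell library and 0.17 and 0.17 in the KI clones. At EB day 4 it was 0.60 in flox and 0.75 and 0.76 in KI, and at EB day 10 it was 1.05 in flox and 1.26 and 1.04 in KI. Stem cells thus held several times more Krt8 than Krt18 RNA, and the difference closed as EBs formed. In TE the ratio was 1.03 and 1.01 in flox and 1.34 and 1.34 in KI, and in ExEn it was 0.80 and 0.79 in flox and 1.06 and 1.01 in KI. KI lay above flox in both lineages without overlap. In embryos it ranged from 0.67 to 0.95 over 12 libraries. The order was reversed at E8.5, with 0.745, 0.746 and 0.846 in controls and 0.675, 0.735 and 0.701 in KI. At E9.5 the groups overlapped. Keratin genes have related family members and pseudogene copies, and how the authors' counting placed shared reads is not given in the sources used here. Day 16 neurons had the highest ratios, 2.79 and 3.39 in flox and 2.90 and 2.36 in KI, where Krt8 was down to 8 and 6 reads in KI.

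**Figure D3:**
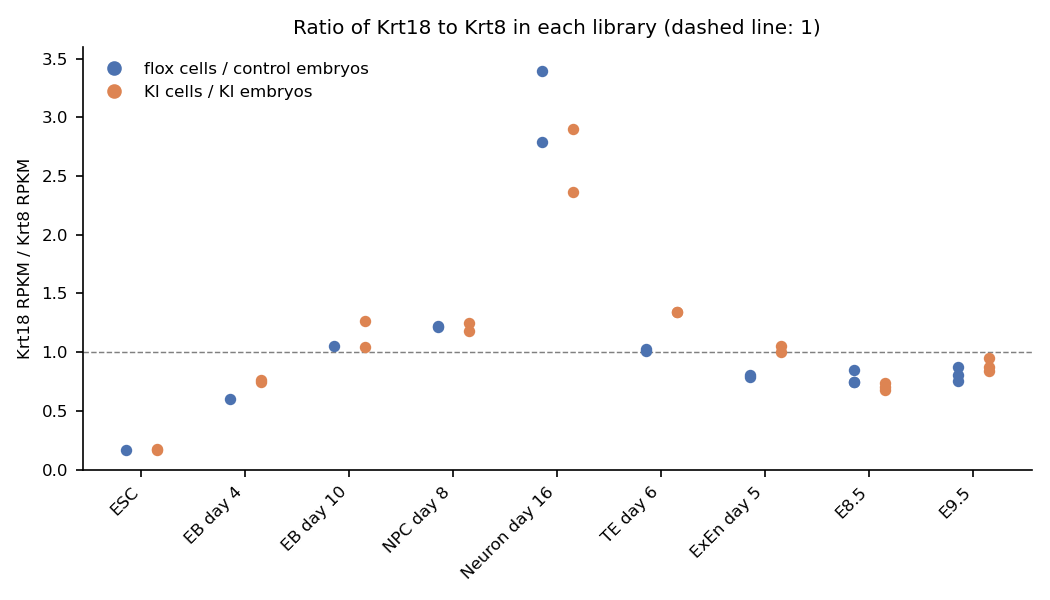
Ratio of Krt18 to Krt8, both in deposited RPKM (linear axis from 0), in each of 37 libraries, with flox cells and control embryos in blue and KI cells and embryos in orange. Stem cell libraries lay at 0.16 to 0.17, and KI lay above flox in TE and ExEn. At E8.5 KI lay below control, and at E9.5 the groups overlapped.

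The ESC and EB course, not labelled with a transgene, shows when these genes come up during spontaneous differentiation. In KI cells, where both clones allow a test of days, Cdx2, Krt8, Krt18, Plac1 and Hand1 rose from stem cells to EB day 4, and Tead4 and Ascl2 fell. That is 5 of 9 members tested called higher and 2 lower, against 50.3% of 15676 genes (26.5% higher and 23.8% lower). Krt18 went from 7.93 and 6.22 CPM to 203 and 163 CPM (log2 change 4.60, SE 0.33, edgeR adjusted p = 0.000154) and Krt8 from 58.6 and 48.3 to 351 and 275 CPM (log2 change 2.45, SE 0.21, edgeR adjusted p = 0.000227). Tead4 fell from 38.4 and 43.0 to 21.1 and 17.4 CPM (log2 change -1.18, SE 0.17, edgeR adjusted p = 0.00113). The fall of Ascl2 (-1.33, SE 0.31, edgeR adjusted p = 0.00992) lost its call without clone 27 on either day, and the rise of Cdx2 (1.64, SE 0.39, edgeR adjusted p = 0.0121) without clone 48 on either day. Elf5 had at most 1 read in these libraries and was not tested. Genes of other cell types moved over the same step. Pluripotency genes summed to 4939.8 to 5244 CPM in stem cells and 1622 to 1681 CPM at day 4 (6 of 8 called lower and 1 higher), and extraembryonic endoderm genes to 14.6 to 16.6 and 107 to 114 CPM (6 of 10 called higher and 1 lower). Of 8 mesoderm genes 4 were called higher and 0 lower, of 5 gut and surface epithelium genes tested 3 higher and 1 lower, and of other keratins and junction genes 10 of the 13 tested were called higher and 2 lower (median log2 fold change 1.92, against 0.01 over all genes). Their part in the member changes was not tested.

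From EB day 4 to day 10, Krt7, Krt8, Krt18, Plac1 and Hand1 rose and Ascl2 fell, 5 and 1 of 9, against 73.3% of genes called (36.7% higher and 36.6% lower). Hand1 went from 2.47 and 2.85 to 193 and 139.7 CPM (log2 change 5.88, SE 0.24, edgeR adjusted p = 3.81e-06) and Plac1 from 0.411 and 0.452 to 16.1 and 12.8 CPM (log2 change 4.96, SE 0.27, edgeR adjusted p = 4.87e-06). Krt7, not called from stem cells to day 4, rose from 2.74 and 1.90 to 19.6 and 16.4 CPM (log2 change 2.87, SE 0.24, edgeR adjusted p = 3.1e-05). The fall of Ascl2 (-0.96, SE 0.34, edgeR adjusted p = 0.0363) was not called by DESeq2, nor without either clone at day 4 or clone 48 at day 10. Of the 16 other trophoblast stem cell regulators, 9 of the 16 tested were called higher and 5 lower (median log2 fold change 1.42, against 0.00 over all genes), and Eomes, which had risen by 4.46 to day 4, fell by 4.53 on the log2 scale. The day 10 bodies hold other tissues that use these genes. The summed levels of 8 heart genes and of 8 extraembryonic and lateral mesoderm genes were 586 to 613 CPM and 2919.5 to 3247 CPM in KI at day 10, beside 15.3 to 16.9 and 403 to 551 CPM at day 4, with 8 of 8 called higher in each list. Extraembryonic endoderm genes went from 107 to 114 to 1367 to 1578 CPM (10 of 10 called higher) and pluripotency genes from 1622 to 1681 to 155 to 210.2 CPM (6 of 8 called lower and 1 higher). Mesothelium genes summed to 43.4 to 49.7 and 39.1 to 74.7 CPM, with 4 of 5 tested called higher and 1 lower, and gut and surface epithelium genes to 227 to 239.6 and 159 to 199 CPM, with 3 of 5 tested called higher and 1 lower. The part of these lists in the changes of Hand1, Plac1 and the keratins was not tested.

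KI against flox could be tested in this course only as an average over the days, with 1 flox library a day. None of 9 members was called by edgeR or by DESeq2, and 0 had an unadjusted p under 0.05, against 0.73% of 16567 genes called (0.398% higher and 0.332% lower). The lowest unadjusted p was that of Hand1 (-2.38, SE 1.13, edgeR adjusted p = 0.346). Single days had no test, so members were named where both clones were at least 2-fold from the flox library in the same direction, with 0.5 CPM added. None was named in stem cells, beside 5.18% of 12934 genes higher and 2.5% lower. On EB day 4, 4 members were lower in KI, beside 4.43% of 13843 genes (1.45% were higher). Hand1 stood at 71.2 CPM in flox and 2.47 and 2.85 CPM in KI, Krt8 at 1268 CPM in flox and 351 and 275 CPM in KI, Krt18 at 589 CPM in flox and 203 and 163 CPM in KI, and Krt7 at 6.08 CPM in flox and 2.74 and 1.90 CPM in KI. With 1 CPM added Krt7 was no longer named, and with 0.1 CPM added Plac1 was named as well, at 1.23 CPM in flox and 0.411 and 0.452 CPM in KI. The mesoderm list summed to 1069 CPM in flox and 403 to 551 CPM in KI on that day, and pluripotency genes to 881 CPM in flox and 1622 to 1681 CPM in KI. Extraembryonic endoderm genes summed to 194 CPM in flox and 107 to 114 CPM in KI, and heart genes to 42.3 CPM in flox and 15.3 to 16.9 CPM in KI. Their part was not tested.

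On EB day 10 other members differed. Cdx2 and Plac1 were named as higher in KI, beside 3.5% of 14589 genes (3.91% were lower). Cdx2 was at 2.06 CPM in flox and 14.4 and 7.29 CPM in KI, and Plac1 at 1.90 CPM in flox and 16.1 and 12.8 CPM in KI. Krt8 was now at 340.0 CPM in flox and 767 and 538 CPM in KI, and Hand1 at 108 CPM in flox and 193 and 139.7 CPM in KI, within 2-fold for at least 1 clone. Krt7 was the one keratin with both clones below flox, at 33.2 CPM in flox and 19.6 and 16.4 CPM in KI, with 1 clone at the 2-fold limit. Mesothelium genes, a keratin-rich lining of body cavities, summed to 492 CPM in flox and 39.1 to 74.7 CPM in KI. Heart genes summed to 1809.6 CPM in flox and 586 to 613 CPM in KI, and extraembryonic endoderm genes to 953 CPM in flox and 1367 to 1578 CPM in KI. Their part was not tested.

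Neural cultures held low levels of most of these genes. At NPC day 8, 7 members passed the filter on low counts, and Krt7 and Esx1 were called higher and Cdx2 lower in KI, against 19.5% of 16439 genes called (6.3% higher and 13.2% lower). Krt7 measured 6.17 and 7.13 CPM in flox and 8.77 and 11.3 CPM in KI (log2 change 0.63, SE 0.20, edgeR adjusted p = 0.0462). Esx1 measured 0.881 and 0.860 CPM in flox and 1.54 and 1.39 CPM in KI (log2 change 0.78, SE 0.23, edgeR adjusted p = 0.0351), and Cdx2 0.255 and 0.410 CPM in flox and 0.0919 and 0.0819 CPM in KI (log2 change -1.90, SE 0.51, edgeR adjusted p = 0.0197). None of these calls stood in every fit. No member was called without flox library 2, without clone 27 or without clone 48, Krt7 and Esx1 were not called without flox library 1, and DESeq2 called 1, Krt7. Krt8 was at 62.7 and 63.7 CPM in flox and 48.2 and 64.5 CPM in KI, with overlapping groups (log2 change -0.13, SE 0.13, edgeR adjusted p = 0.563). Genes of other cell types already differed at day 8. Mesothelium genes summed to 102 to 103 CPM in flox and 28.6 to 39.0 CPM in KI (5 of 6 called lower), and neuron genes to 930.2 to 933 CPM in flox and 622 to 704 CPM in KI (5 of 6 called lower). Extraembryonic and lateral mesoderm genes summed to 141 to 142 CPM in flox and 64.4 to 66.2 CPM in KI (5 of 7 tested called lower), and extraembryonic endoderm genes to 120.0 to 121 CPM in flox and 38.0 to 42.9 CPM in KI (6 of 9 tested called lower). Gut and surface epithelium genes summed to 30.0 to 30.6 CPM in flox and 53.7 to 57.8 CPM in KI (2 of 4 tested called higher). Their part in the member values was not tested.

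By day 16 the keratins had parted between the genotypes. Krt7, Krt8, Krt18, Tead4 and Ascl2 were lower in KI neurons, 5 of 7 tested with 0 higher, against 46.9% of genes (27.1% higher and 19.7% lower). The median of the 7 was -1.90, against 0.09 over all genes. Krt7 stood at 4.12 and 6.15 CPM in flox and 0.0370 and 0.0835 CPM in KI, on 2 and 5 reads (log2 change -6.12, SE 0.38, edgeR adjusted p = 2.53e-07). Krt18 stood at 5.34 and 6.61 CPM in flox and 0.333 and 0.184 CPM in KI (log2 change -4.33, SE 0.25, edgeR adjusted p = 1.43e-07) and Krt8 at 2.47 and 2.51 CPM in flox and 0.148 and 0.100 CPM in KI (log2 change -4.11, SE 0.30, edgeR adjusted p = 9.71e-07). The flox and KI values of each keratin did not overlap, beside 46.9% of all genes called, and the level in flox was itself low. Ascl2 went from 1.51 and 1.67 to 0.148 and 0.568 CPM (log2 change -1.90, SE 0.39, edgeR adjusted p = 0.00194) and Tead4 from 0.945 and 1.15 to 0.444 and 0.217 CPM (log2 change -1.46, SE 0.31, edgeR adjusted p = 0.00249). These 5 calls stood in each of 9 alternative fits. Without clone 48 the Ascl2 difference widened and without clone 27 it narrowed, between -3.20 and -1.25.

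The interaction of genotype and day was called for Krt7 (-6.74, SE 0.45, edgeR adjusted p = 1.65e-06), Krt18 (-4.19, SE 0.30, edgeR adjusted p = 2.34e-06) and Krt8 (-3.98, SE 0.34, edgeR adjusted p = 8.03e-06), 3 of 7 members, all lower, against 33.2% of all genes (19.2% higher and 14.0% lower). Of other keratins and junction genes at day 16, 0 of the 14 tested were called higher and 6 lower (median log2 fold change -1.24, against 0.09 over all genes), and in the interaction 0 were called higher and 3 lower of the same 14. Krt19 averaged 15.5 ± 2.87 CPM in flox and 0.140 ± 0.0147 CPM in KI (SD, n = 2), a difference of -6.55 (SE 0.32). Of the Hippo list 1 of the 15 tested were called higher and 10 lower (median log2 fold change -0.97, against 0.09 over all genes), with Ankrd1 at -4.33 (SE 0.96), Wwtr1 at -1.81 (SE 0.13) and Lats2 at -1.75 (SE 0.10). Mesothelium genes, which share Krt7, Krt8, Krt18 and Krt19 with trophoblast, summed to 94.2 to 96.7 CPM in flox and 6.70 to 10.8 CPM in KI, with 6 of 6 called lower. Neuron genes summed to 2120.3 to 2171 CPM in flox and 3252 to 3613 CPM in KI. Extraembryonic and lateral mesoderm genes summed to 379 to 429 CPM in flox and 80.0 to 115 CPM in KI, with 7 of 7 tested called lower, and extraembryonic endoderm genes to 84.8 to 86.2 CPM in flox and 15.5 to 25.3 CPM in KI, with 4 of 9 tested called lower and 1 higher. Gut and surface epithelium genes summed to 5.34 to 5.72 CPM in flox and 8.17 to 8.88 CPM in KI. The part of any of these in the keratin differences was not tested. The giant cell gene Prl3d1 and Prl3b1 were at 0 in both genotypes.

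**Figure D4:**
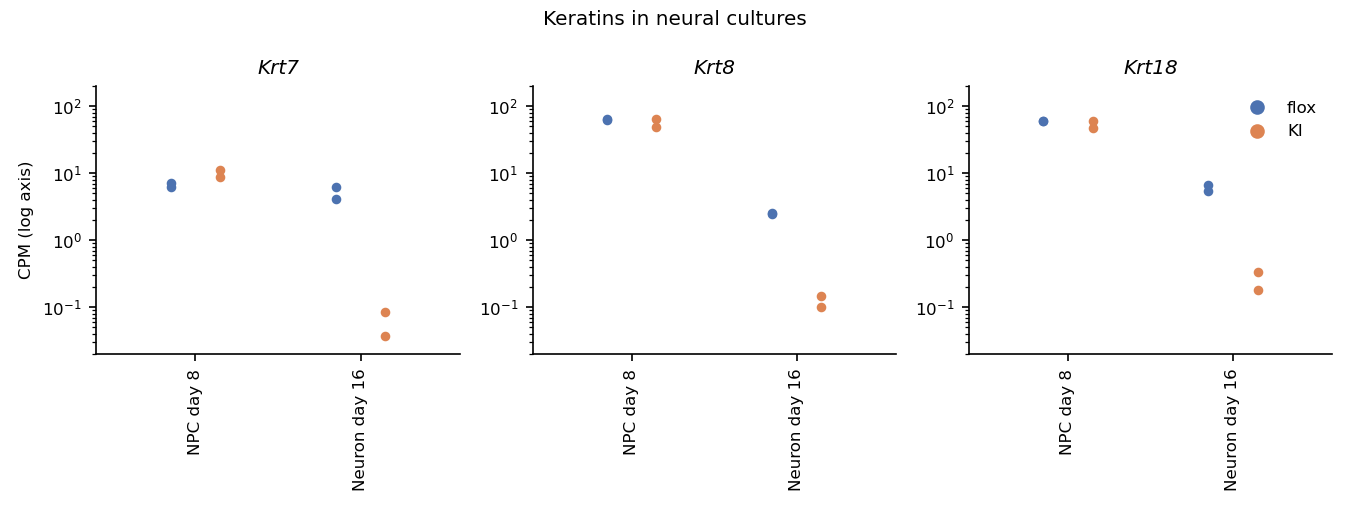
CPM (log axis) of Krt7, Krt8 and Krt18 in NPCs (day 8) and neurons (day 16), with each flox library (blue) and KI clone (orange) as a point. The groups lay close together at day 8 and were separated at day 16, where the KI values were between 0.037 and 0.333 CPM.

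Whole embryos show the same genes where they are used in several tissues. At E8.5, Hand1 was called higher and Krt7 lower in KI, 1 and 1 of 10, against 5.46% of 15436 genes called (3.63% higher and 1.83% lower). Hand1 stood at 77.2, 88.3 and 75.3 CPM in controls and 187, 180.1 and 235 CPM in KI embryos (log2 change 1.32, SE 0.30, edgeR adjusted p = 0.0443). The groups were far apart, yet the call was lost when any 1 of the 6 E8.5 libraries was left out (adjusted p from 0.0827 to 0.156, log2 fold change from 1.20 to 1.40). Krt7 stood at 16.5, 16.3 and 21.6 CPM in controls and 10.7, 9.27 and 12.1 CPM in KI (log2 change -0.76, SE 0.18, edgeR adjusted p = 0.0222), without overlap, and lost its call without control 3, KI 1 or KI 2. Plac1 showed the largest rise of the 10 and did not pass the threshold, at 2.89, 11.2 and 2.91 CPM in controls and 27.1, 18.6 and 28.2 CPM in KI (log2 change 2.09, SE 0.52, edgeR adjusted p = 0.055). Control 2 was the high control, and without it Plac1 was called (3.08, SE 0.29, edgeR adjusted p = 5.51e-06). DESeq2 also called it (adjusted p = 0.00356). Krt8 measured 343, 286 and 265 CPM in controls and 440.0, 381 and 491 CPM in KI (log2 change 0.56, SE 0.27, edgeR adjusted p = 0.317), and Krt18 198, 165 and 174 CPM in controls and 230.3, 217 and 267 CPM in KI (log2 change 0.42, SE 0.23, edgeR adjusted p = 0.374). Neither was called, although every KI value lay above every control value, and a fit of the 6 E8.5 libraries alone called both.

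Cdx2, which patterns the tail end of the embryo, stood in E8.5 embryos at 119.6, 87.8 and 75.8 CPM in controls and 128, 119.7 and 101 CPM in KI (log2 change 0.31, SE 0.37, edgeR adjusted p = 0.729). The groups overlapped. Tead4 was at 15.2, 10.3 and 7.15 CPM in controls and 10.7, 9.36 and 11.5 CPM in KI, Ascl2 at 0.0995, 2.42 and 1.67 CPM in controls and 0.530, 1.82 and 1.51 CPM in KI, and Esx1 at 1.79, 0.447 and 0.857 CPM in controls and 1.59, 0.0909 and 0.356 CPM in KI, none of them called. Elf5 had at most 14 reads in any embryo at E8.5.

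At E9.5, Hand1, Krt8 and Krt18 were higher in KI embryos, 3 of 10 with 0 lower, against 29.5% of genes called (14.6% higher and 14.9% lower). Hand1 stood at 22.9, 29.2 and 59.6 CPM in controls and 141, 153 and 154 CPM in KI (log2 change 2.01, SE 0.31, edgeR adjusted p = 0.00189). Krt18 stood at 49.6, 62.0 and 102 CPM in controls and 174, 157 and 159 CPM in KI (log2 change 1.20, SE 0.23, edgeR adjusted p = 0.00545) and Krt8 at 73.1, 98.9 and 174 CPM in controls and 236, 240.4 and 235 CPM in KI (log2 change 1.04, SE 0.28, edgeR adjusted p = 0.0236). The groups did not overlap for Hand1, Krt18 or Krt8, beside 29.5% of all genes called, and control 3 was the highest control for each. Hand1 and Krt18 were called in each of 12 alternative fits. Krt8 was not called without control 2 or any 1 of the KI libraries, nor in a fit of the E9.5 libraries alone (adjusted p = 0.108). The median of the 10 members was 1.02, against 0.01 over all genes.

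Ascl2 and Krt7 lay at the threshold at E9.5. Ascl2 measured 0.556, 0.223 and 0.447 CPM in controls and 1.86, 2.02 and 0.972 CPM in KI (log2 change 1.98, SE 0.75, edgeR adjusted p = 0.0585), and Krt7 20.4, 20.1 and 34.0 CPM in controls and 19.0, 17.97 and 17.1 CPM in KI (log2 change -0.46, SE 0.18, edgeR adjusted p = 0.059). Whether they were called turned on the fit. DESeq2 called Ascl2 (adjusted p = 0.0281) and Krt7 (adjusted p = 0.0365), and a fit of the E9.5 libraries alone called Ascl2 (edgeR adjusted p = 0.0104) and Plac1 (edgeR adjusted p = 0.0153). Krt7 was also called with RLE size factors (edgeR adjusted p = 0.0489), with no filter (0.0486), and without control 1 (0.0332) or control 2 (0.0219), whereas without control 3, the high one, it shrank to -0.18 (0.405). The 3 KI values of Krt7 were thus below the controls at both stages, where those of Krt8 and Krt18 were above. Plac1 was at 2.10, 1.34 and 3.13 CPM in controls and 3.98, 4.85 and 5.66 CPM in KI (log2 change 1.15, SE 0.57, edgeR adjusted p = 0.171), and Cdx2 at 14.4, 10.7 and 30.6 CPM in controls and 35.3, 23.0 and 19.0 CPM in KI, with overlap (log2 change 0.49, SE 0.41, edgeR adjusted p = 0.422).

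**Figure D5:**
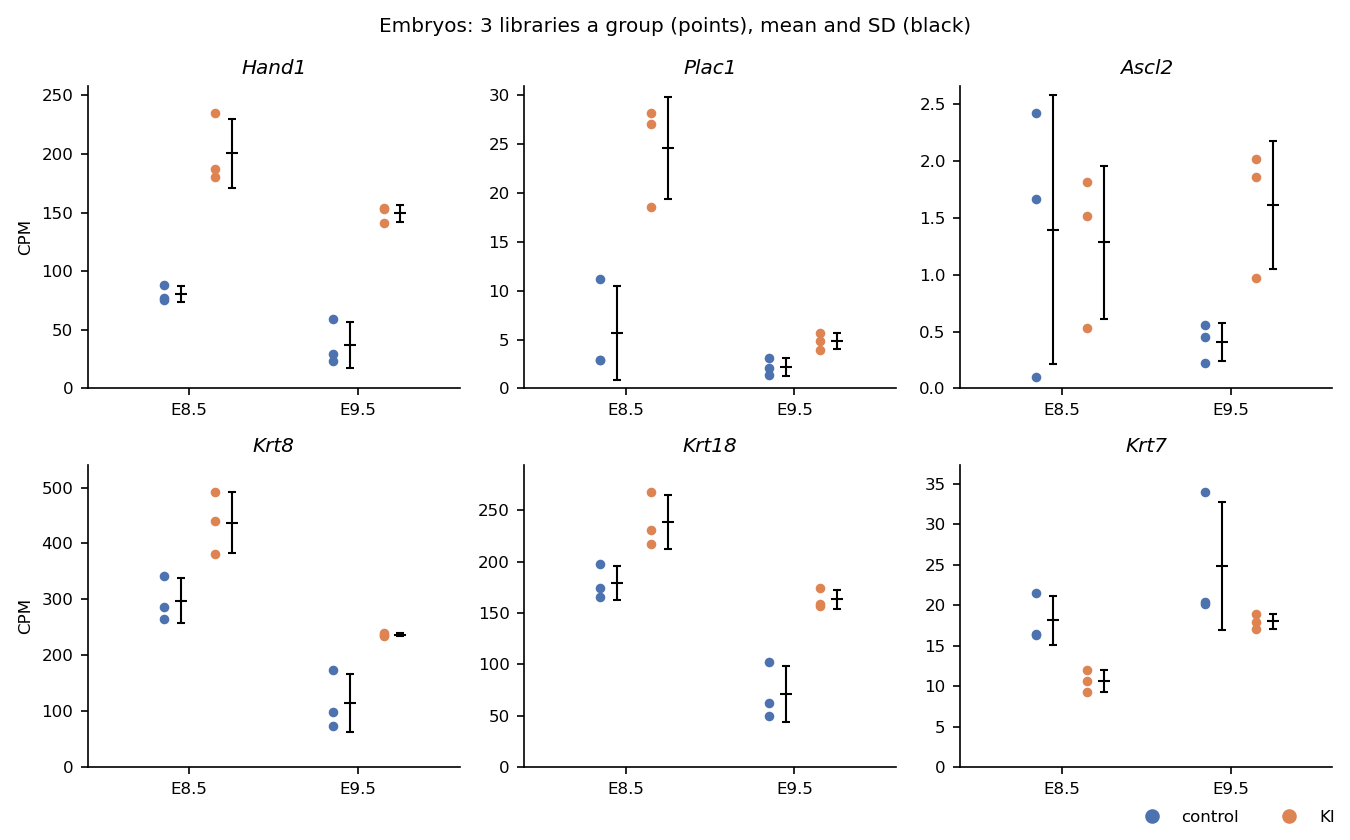
CPM (linear axes from 0) of 6 genes in embryos of E8.5 and E9.5, with 3 control (blue) and 3 KI (orange) libraries per stage as points and the group mean with its SD in black. Hand1, Krt8, Krt18 and Plac1 lay higher in all 3 KI libraries at both stages, and Krt7 lay lower. Of these, only Hand1 and Krt7 were called at E8.5, where 5.46% of all genes were. At E9.5, where 29.5% of genes were called, only Hand1, Krt8 and Krt18 were.

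No member had a KI effect that differed between E9.5 and E8.5 in edgeR or DESeq2, where 1 had an unadjusted p under 0.05 and 6.63% of all genes were called (3.39% higher and 3.24% lower). The count depended on single controls. Without E8.5 control 1, Ascl2 was called (2.66, SE 0.74, edgeR adjusted p = 0.0412), and without E8.5 control 2, Plac1 (-1.94, SE 0.38, adjusted p = 0.00548). Without E9.5 control 3, 3 members were called: Krt18 (1.14, SE 0.13, edgeR adjusted p = 9.35e-05), Hand1 (1.20, SE 0.15, adjusted p = 0.000347) and Krt8 (0.91, SE 0.17, adjusted p = 0.0108). Within controls, 5 members were lower at E9.5 than at E8.5 with 0 higher, against 24.2% of genes (12.2% higher and 12.1% lower). Cdx2 fell most among those with enough reads (-2.42, SE 0.41, edgeR adjusted p = 0.00336), followed by Krt8 (-1.43, SE 0.28, edgeR adjusted p = 0.00691), Krt18 (-1.39, SE 0.23, edgeR adjusted p = 0.00304) and Hand1 (-1.18, SE 0.31, edgeR adjusted p = 0.0263). Esx1 was also called, on 0, 0 and 6 reads at E9.5, and no fold is given for it. Hand1 and Esx1 lost their calls without E9.5 control 1 or 2 or E8.5 control 1 or 3, and Hand1 also without E8.5 control 2. A fit of the 6 control libraries alone kept 3 calls, losing Hand1 and Krt8. Other lists moved with stage in controls. Extraembryonic endoderm genes summed to 219 to 601 CPM at E8.5 and 135 to 142 CPM at E9.5 (7 of 10 called lower), heart genes to 471 to 674 and 272 to 311 CPM (5 of 8 called lower), and neuron genes to 33.3 to 37.7 and 140.0 to 212 CPM (4 of 6 called higher). Of 8 mesoderm genes 2 were called lower, and of 5 mesothelium genes tested 3 were called higher and 1 lower. Their part in the member changes was not tested.

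Several cell types of the embryo also shifted with genotype. At E8.5 the extraembryonic and lateral mesoderm list summed to 481 to 566 CPM in controls and 707 to 992 CPM in KI, with 5 of 8 called higher, Bmp4 at 0.96 (SE 0.12) and Hoxa13 at 2.55 (SE 0.46) among them. At E9.5 that list summed to 326 to 602 CPM in controls and 733 to 821 CPM in KI, with 4 of 8 called higher. Heart genes summed to 471 to 674 CPM in controls and 672 to 951 CPM in KI at E8.5, with 2 of 8 called higher, and extraembryonic endoderm genes to 219 to 601 CPM in controls and 248 to 580.2 CPM in KI, with overlap and 3 of 10 called higher. Heart genes summed to 272 to 311 CPM in controls and 568 to 950.1 CPM in KI at E9.5, with 7 of 8 called higher, and extraembryonic endoderm genes to 135 to 142 CPM in controls and 305 to 423 CPM in KI, with 4 of 10 called higher. Mesothelium genes summed to 37.7 to 48.8 CPM in controls and 64.4 to 82.3 CPM in KI at E9.5, with 1 of 5 tested called higher. Neuron genes summed to 140.0 to 212 CPM in controls and 39.3 to 43.2 CPM in KI, and neural progenitor genes to 673 to 876 CPM in controls and 395 to 484 CPM in KI, with 4 of 6 and 6 of 6 called lower. Hand1 is used in heart and mesoderm, and Krt8 and Krt18 in surface and gut epithelium. The 8 gut and surface epithelium genes summed to 78.0 to 121 CPM in controls and 99.2 to 110.0 CPM in KI at E8.5, and to 96.0 to 113 CPM in controls and 121 to 132 CPM in KI at E9.5, with 1 called higher and 1 lower of 6 tested at each stage. The part of these cell types in the member differences was not tested. At E8.5, of the trophoblast stem cell regulators 2 of the 16 tested were called higher and 0 lower (median log2 fold change 0.09, against -0.01 over all genes), and of the differentiated trophoblast genes 3 of the 7 tested were called higher and 0 lower (median log2 fold change 0.46, against -0.01 over all genes), with Phlda2 at 1.20 (SE 0.25). Of other keratins and junction genes at E9.5, 4 of the 15 tested were called higher and 1 lower (median log2 fold change 0.27, against 0.01 over all genes), with Dsp, a desmosome gene of heart and epithelium, higher at 1.46 (SE 0.09) and Krt5 lower at -2.51 (SE 0.39). Of the trophoblast stem cell regulators 7 of the 16 tested were called higher and 1 lower (median log2 fold change 0.68, against 0.01 over all genes), with Gata3 at 1.08 (SE 0.14) and Bmp4 at 1.03 (SE 0.12). Of the differentiated trophoblast genes 5 of the 7 tested were called higher and 0 lower (median log2 fold change 0.75, against 0.01 over all genes), with Phlda2 at 1.67 (SE 0.35). That list summed to 873 to 1012 CPM in controls and 1531 to 1608 CPM in KI at E9.5. Within it Tpbpa and Ctsq were at 0 in both E9.5 groups, and Prl3d1 was at 0 in controls and 0.0147 ± 0.0255 CPM in KI (SD, n = 3).

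The patterns of the members over all groups were compared among 16458 entries, members included, with at least 1 CPM in at least 2 libraries. The measure was the correlation of log2 CPM over 18 group means, which share libraries and depth and are not independent. Among the members, Krt8 and Krt18 were most alike (Pearson r = 0.96), followed by Plac1 and Hand1 (0.88) and Krt7 and Krt18 (0.85). Krt8 was nearest to the tight junction gene Cldn6 (0.98), Cldn7 and the plaque gene Pkp2 (both 0.96). Krt18 was nearest to Dsp (0.98), Tubb6 and the tight junction gene Tjp1 (both 0.97), and Krt7 to Pxn (0.96), Kremen1 (0.95) and Tinagl1 (0.93). Hand1 followed Bmp4 (0.97), ahead of Rab13 and Ripor3 (0.93 and 0.92). Esx1 followed Dkkl1 (0.97), Rhox9 and Rhox6 (both 0.96), and Tead4 followed Crip1, Smagp and Agpat2 (each 0.97). Cdx2 was nearest to Fdx2 (0.94), Klk8 (0.92) and Wtip (0.90), Ascl2 to Sgk2 and Rnf31 (both 0.94) and Mta3 (0.92), and Plac1 to Tmem140 (0.89), Tpcn1 and Slc39a5 (both 0.88). Elf5 was nearest to Lrrc74b (0.92) and to the renin genes Ren1 and Ren2 (both 0.91), near-identical copies that can share reads. Over the 37 single libraries the value was lower for Plac1 with Slc39a5 (0.76) and for Elf5 with Lrrc74b (0.83).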

How the data were processed

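RNA tables of 37 libraries were used, and 63 other samples of the series, 1 RNA library of day 8 neural cells labelled Mll34DKO65 among them, were not analysed here. Per the file headers, each table deposited by the authors holds a read count and an RPKM for each of 29082 transcripts. The submitters' processing notes name bcl2fastq, STAR, Bowtie2, SICER 1.1 and mm9, and the counting program, annotation and strand setting are not given in the sources used here. The authors' RPKM was used only to set genes beside each other. From the counts, the transcript with most reads stood for each gene (28436 of 29082 accessions had a gene name, 646 did not), which gave 23109 entries, and CPM was computed on their total. Counts as deposited were tested with edgeR 4.0.16 in R 4.3.3 (quasi-likelihood, TMM, genes of low count removed by filterByExpr with a minimum count of 10, Benjamini-Hochberg over all genes tested). Fits held all groups of a culture system or all embryos, and a gene was called at an adjusted p under 0.05. Alternatives were DESeq2 1.42.0, RLE size factors, no filter, sums over transcripts, the compared libraries alone, a 2-fold minimum, a replicate block and each library left out. For KI against flox in the EB course, a KI clone or a day was left out instead of single libraries.

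The members and lists were chosen with earlier results of these data known. The text names all 10 members and, from each list and comparison, up to 4 called genes of largest change, besides markers cited by their level. KI clones 27 and 48 are the same cell lines in each culture (correlation of same-clone deviations from 0.19 to 0.42) and so pair libraries within KI. Numbers in the titles of E8.5 embryos did so as well (0.26, 0.36 and 0.47), while flox numbers did not (0 and 0.06). Lines are nested in genotype, so KI and flox cultures could not be paired.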

Additional observations from a re-analysis of the deposited data

Results flagged for a closer look

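The KI effect on 8 members differed between TE and ExEn cultures by an interaction term, against 35.3% of 15532 genes called. On the log2 scale, TE minus ExEn, the difference was 2.24 for Cdx2, 1.84 for Plac1, 0.54 for Hand1, 0.39 for Tead4, 0.36 for Krt18, 0.33 for Krt8, -1.004 for Krt7 and -1.32 for Esx1. The Cdx2 value may include transgene reads in TE. Cdx2, Esx1, Krt8 and Hand1 kept their calls in each of 13 alternative fits, whereas Plac1, Tead4, Krt18 and Krt7 lost theirs in some. The KI effect on all 3 keratins differed between neurons at day 16 and NPCs at day 8, by -6.74 for Krt7, -4.19 for Krt18 and -3.98 for Krt8, with KI relatively lower in neurons. Over all 16439 genes tested there, 33.2% were called.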

How the results depend on the processing

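The 9 calls in TE and the 5 in neurons stood under every alternative fit except the 2-fold minimum, which kept 6 of those in TE. Counts of members called moved by over 1.5 times elsewhere, and the cause was not tested. The 2-fold minimum left 3 in ExEn, 4 in the TE and ExEn interaction, 1 in NPCs and 1 at E8.5. No filter on low counts left 5 in that interaction. DESeq2 called 1 in NPCs and 5 at E9.5. The compared libraries alone gave 5 in NPCs, 4 at E8.5 and 3 in controls at E9.5 against E8.5. With single libraries left out the count ran from 4 to 9 in the TE and ExEn interaction, 0 to 1 in NPCs, 0 to 2 at E8.5, 0 to 3 in the interaction of genotype and stage and 3 to 5 in controls at E9.5 against E8.5. With 0.1 CPM added, 2 members passed 2-fold in stem cells. A replicate block gave 5 calls at E9.5, adding Ascl2 and Krt7, where title numbers (correlations 0.03 to 0.23) are shared but not shown to pair embryos. The block added Plac1 to TE against ExEn in flox (9 calls) and moved no other count of members called.

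Over all members and alternatives, 1314 log2 fold changes kept their sign and their side of the threshold, 75 lost a call, 36 gained one and 40 changed sign. Those that changed sign belonged to members not called in either fit. In the EB course Cdx2 was 0.35 without day 0 and 0.051 without day 4. Without day 4 Krt8 was 0.87, Krt18 1.00 and Hand1 0.62, and without day 10 Plac1 was -0.999. From EB day 4 to 10 Cdx2 was -0.054 with a replicate block and Tead4 -0.0035 with sums over transcripts. At E8.5 the replicate block gave 0.0042 for Tead4 and 0.16 for Ascl2. With single libraries left out, or a KI clone in the EB course, the remaining changes of sign lay in the following ranges. In TE against ExEn in KI the range was -0.074 to 0.14 for Krt8. In KI against flox in NPCs the range was -0.36 to 0.068 for Krt8 and -0.33 to 0.024 for Krt18. In KI against flox in neurons the range was -0.11 to 0.91 for Cdx2 and -0.38 to 0.18 for Esx1. In the interaction of genotype and neural day the range was -1.20 to 0.76 for Ascl2. In the EB course, with a KI clone left out on all days, the range was -0.23 to 0.15 for Krt8 and -0.20 to 0.31 for Krt18. In KI from ESC to EB day 4 the range was -0.37 to 0.15 for Krt7. In KI from EB day 4 to 10 the range was -0.54 to 0.44 for Cdx2, -0.23 to 0.24 for Tead4 and -0.58 to 0.95 for Esx1. In E8.5 the range was -0.27 to 0.25 for Tead4, -0.69 to 0.52 for Ascl2 and -2.16 to 0.061 for Esx1. In E9.5 the range was -0.19 to 0.61 for Elf5. In the interaction of genotype and stage the range was -0.12 to 0.74 for Cdx2 and -0.051 to 0.47 for Tead4. In controls at E9.5 against E8.5 the range was -0.089 to 1.40 for Elf5. Depth limits Elf5 outside TE, and Esx1 in embryos, where levels rest on a few reads.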
